A study of Mus musculus with 8 samples.

Results

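The genes described here are 7 ion channel genes of the muscle fiber membrane, chosen by symbol from the table of normalized counts, which holds 55401 genes. They are the sodium channel gene *Scn4a*, the chloride channel gene *Clcn1* and the potassium channel genes *Kcnj2*, *Kcnj11*, *Kcnn3*, *Kcna5* and *Kcnc1*. All 7 symbols matched a single row, and all 7 averaged at least 10 normalized counts over the muscles and entered the test. Bulk RNA-seq was performed on whole tibialis anterior (TA) muscles of 4 WT mice and 4 *mdx5cv* mice, all 6 mo old and of the C57/Bl6 strain. *mdx5cv* mice carry a point mutation in *Dmd*, the X-linked gene for dystrophin, in every cell of the body, so the lesion is not restricted to the muscle fiber. The study's methods give male mice as the default for its experiments. RNA was extracted with Trizol, and the libraries were reversely stranded and prepared from total RNA depleted of ribosomal RNA. The labels name no treatment. The labels do not say whether the replicates of a group are littermates, so the p-values measure the spread between these 4 muscles of each genotype.

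The action potential of a skeletal muscle fiber is started by voltage-gated sodium channels and ended by the inactivation of these channels together with the opening of potassium channels. Chloride channels carry most of the resting conductance of the fiber and dampen its excitability, and inward rectifier potassium channels hold the resting potential. Inherited defects of these channels cause the myotonias and periodic paralyses, and the set of channels in a fiber is known to change when it is denervated or when it is newly formed during regeneration.

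The normalized count is the number of reads on a gene divided by a size factor of its library. Recovered reads per library ranged from 13862559 to 14921057 in WT and from 13175524 to 14502624 in *mdx5cv*. *Dmd* had 6954 ± 857 normalized counts in WT muscles and 3964 ± 388 (SD, n = 4) in *mdx5cv* muscles, for a log2 fold change of -0.81 with an SE of 0.12 and an adjusted p of 0.000177 in limma, and the groups did not overlap. The tissue matched its label, since the 10 adult fast fiber markers, which include *Myh4*, *Ckm* and *Acta1*, together held between 920699 and 1495822 normalized counts in every muscle. Of these 10 markers, 4 were lower in *mdx5cv* and 0 were higher in limma, edgeR and DESeq2, and 0 were higher at an unadjusted p under 0.05 in limma, whereas at equal totals 3 were lower and 1, *Atp2a1*, was higher. *mdx5cv* replicate 4 had the lowest sum of these markers and the highest sums of the macrophage, fibroblast and regenerating fiber markers. Higher sums in *mdx5cv* without overlap were also found for markers of slow fibers (747 to 834 in WT and 1202 to 2597 in *mdx5cv*), satellite cells (238 to 302 and 358 to 684), fibroblasts (5196 to 7870.2 and 17446 to 31390.2) and T cells (2.29 to 4.39 and 17.6 to 45.5), and lower sums for adipocytes (909 to 1479.8 and 423 to 658). The markers of these lists did not all move with their sum. Of the 7 slow fiber markers, 4 were higher in limma and 1 was lower. Of those tested, 2 of 4 satellite cell and 4 of 5 fibroblast markers were higher, and 4 of 5 adipocyte markers were lower. The T cell markers had at most 33 reads in any library and were not tested. In bulk muscle, fewer cells of a type and less RNA per cell cannot be told apart.

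Of the 7 genes, *Kcnn3* and *Kcnc1* were higher and *Kcnj2* and *Kcna5* were lower in *mdx5cv* at an adjusted p under 0.05 in limma, and *Scn4a*, *Clcn1* and *Kcnj11* did not pass. Over all 13677 genes tested, 20.9% were higher and 20.1% were lower at this level, so that 2 higher and 2 lower genes of 7 is near the share of all genes. These shares are also the background for the limma counts of the channel, pump and regulator lists below. *Kcnn3* and *Kcna5* also differed by at least 1 on the log2 scale, a threshold that the study's methods use and that 10.3% of all genes passed upward and 3.27% passed downward. The groups did not overlap for the same 4 genes that passed, and among all genes tested 20.3% had no overlap with the higher values in *mdx5cv* and 19.8% had none with the lower values in *mdx5cv*. The 7 genes had a median log2 fold change of -0.23, against 0.0035 for all genes tested. The plot of normalized counts by muscle gives the value of each gene in each muscle.

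**Figure D1:**
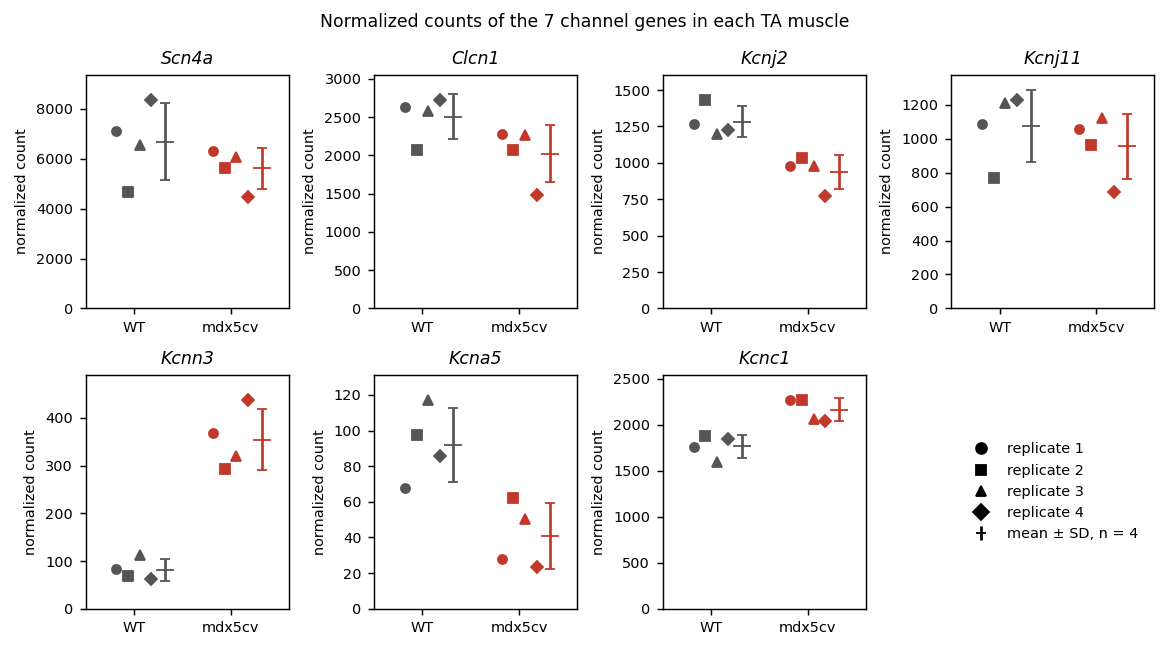
Normalized counts (y axis, from 0, a scale per gene) of the 7 channel genes in 4 WT muscles (gray) and 4 *mdx5cv* muscles (red), with a symbol per replicate and the mean ± SD beside them. The groups are apart for *Kcnj2*, *Kcnn3*, *Kcna5* and *Kcnc1* and overlap for *Scn4a*, *Clcn1* and *Kcnj11*.

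The promoter sequences of the 4 genes that passed are shown so that genes that differed in opposite directions can be compared. That of *Clcn1*, which did not pass, is also shown. The sequences are the 150 bases before the start site in RefSeq on GRCm38.p6, written from 5′ to 3′ on the strand of the gene. The region of *Kcnn3* is chr3:89520014-89520163 on the plus strand, that of *Kcnc1* is chr7:46396318-46396467 on the plus strand, that of *Kcna5* is chr6:126535556-126535705 on the minus strand, that of *Kcnj2* is chr11:111066014-111066163 on the plus strand and that of *Clcn1* is chr6:42286535-42286684 on the plus strand. Capitals mark matches on either strand to the E-box CANNTG, the motif of basic helix-loop-helix factors such as MyoD, and to CTANNNNTAG, the core of the motif of the MEF2 factors. These motifs share no match in the sequences shown.
Kcnn3: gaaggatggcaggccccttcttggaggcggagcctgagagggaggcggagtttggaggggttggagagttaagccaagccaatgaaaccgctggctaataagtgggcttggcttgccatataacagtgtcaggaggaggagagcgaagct
Kcnc1: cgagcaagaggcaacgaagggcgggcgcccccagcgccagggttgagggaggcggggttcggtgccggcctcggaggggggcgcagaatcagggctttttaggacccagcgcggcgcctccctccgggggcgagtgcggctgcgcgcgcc
Kcna5: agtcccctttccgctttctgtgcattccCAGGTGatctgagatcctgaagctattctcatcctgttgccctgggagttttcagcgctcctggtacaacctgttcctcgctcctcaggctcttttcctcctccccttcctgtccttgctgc
Kcnj2: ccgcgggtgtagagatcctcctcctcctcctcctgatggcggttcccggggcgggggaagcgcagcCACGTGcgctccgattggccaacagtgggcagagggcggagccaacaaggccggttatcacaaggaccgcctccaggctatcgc
Clcn1: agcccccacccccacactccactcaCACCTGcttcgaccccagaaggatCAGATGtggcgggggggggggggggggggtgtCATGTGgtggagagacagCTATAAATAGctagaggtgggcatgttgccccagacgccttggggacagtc
Of the 7 genes, 6 had a promoter in the table, and the exception was *Kcnj11*. In the 250 bases before the start site, *Clcn1* had 3 E-boxes, *Kcnj2* had 2, *Kcna5* and *Kcnc1* had 1 each, and *Scn4a* and *Kcnn3* had 0. The promoter of *Scn4a*, which did not pass either, is not shown. The RefSeq start site used for *Scn4a*, 106349390, lies inside the gene coordinates given below. One of the E-boxes of *Kcnj2*, at position -206 from the start site, and that of *Kcnc1*, at position -192, lie outside the bases shown. At least 1 E-box was present in 66.2% of all 32851 promoters over the same length. The E-box form CAGCTG was present in *Kcnj2* alone among the 6, and in 13.0% of all promoters. The MEF2-like motif was present in *Clcn1* alone among the 6, as CTATAAATAG starting at position -51, and in 3.20% of all promoters. GC content of the 250 bases ranged from 53.2% in *Kcna5* to 74.4% in *Kcnc1*. A match of letters describes the sequence only.

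*Scn4a* (ENSMUSG00000001027.7, chromosome 11, 106318592 to 106353288, minus strand, GRCm38) encodes the pore-forming subunit of the sodium channel of adult skeletal muscle, which carries the upstroke of the action potential. Its normalized counts were 7117, 4680, 6548 and 8365 in WT replicates 1 to 4 and 6312, 5610.1, 6056 and 4459 in *mdx5cv* replicates 1 to 4. The *mdx5cv* values lay within the WT range except for replicate 4, which was below the lowest WT muscle, replicate 2. The means were 6678 ± 1533 and 5609 ± 820 (SD, n = 4). The log2 fold change was -0.23 (SE 0.17, 95% confidence interval -0.60 to 0.13) with an adjusted p of 0.293 in limma, and the estimate turned positive, to 0.13 and 0.09, when libraries were scaled to equal totals or centered on the fast fiber markers. Without WT replicate 2, which had the lowest WT value, *Scn4a* was lower in *mdx5cv* with a log2 fold change of -0.39 and an adjusted p of 0.0423.

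Of the 15 sodium channel genes listed, 10 were tested, of which 2 were higher, 1 was lower and 7 did not pass, *Scn4a* included. At equal totals and with centering on the fast fiber markers, 4 passed in limma, all of them higher. *Scn3a*, a neuronal and embryonic form, rose from 14.5 ± 3.19 to 33.8 ± 13.1 normalized counts (SD, n = 4; log2 fold change 1.10, SE 0.31, adjusted p = 0.0126). *Scn4b*, an auxiliary beta subunit, fell from 6399.9 ± 231 to 4325 ± 858 (log2 fold change -0.59, SE 0.14, adjusted p = 0.00487), and its call was lost at equal totals (-0.23, adjusted p = 0.114) and with centering on the fast fiber markers (-0.27, adjusted p = 0.102). *Scn7a*, which encodes a sodium-sensing channel of glia, had a log2 fold change of 0.37 (adjusted p = 0.111). Its call turned on the scaling, as it was higher in *mdx5cv* at equal totals (0.73, adjusted p = 0.0105), at equal totals without the mitochondrial genes (0.59, adjusted p = 0.0332) and with centering on the fast fiber markers (0.69, adjusted p = 0.0406), and also without WT replicate 2 (0.55, adjusted p = 0.00889). Values close to 0 were found for *Scn2b* (0.01) and *Scn3b* (0.06), each with under 50 reads in every library. *Scn2a* had a log2 fold change of -0.44 (adjusted p = 0.199), and the sodium leak channel gene *Nalcn* had -0.88 (adjusted p = 0.0661) on 6 to 25 reads per library.

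*Clcn1* (ENSMUSG00000029862.16, chromosome 6, 42286685 to 42315756, plus strand) encodes the chloride channel that carries most of the resting conductance of the fiber and whose loss causes myotonia. WT replicates 1 to 4 had 2631, 2071, 2576 and 2729 normalized counts, and *mdx5cv* replicates 1 to 4 had 2285, 2066, 2267 and 1477. WT replicate 2 lay among the *mdx5cv* values, and *mdx5cv* replicate 4 was far below the other muscles. The means were 2502 ± 294 and 2023 ± 378 (SD, n = 4). The log2 fold change of -0.32 (SE 0.14, 95% confidence interval -0.63 to -0.0076) had an unadjusted p of 0.0454 and an adjusted p of 0.0945 in limma, and its sign turned to 0.04 at equal totals. Without WT replicate 2, the log2 fold change was -0.41 and the adjusted p was 0.0390. The antisense neighbor *Fam131b* overlaps exons of *Clcn1* but had only 1 to 4 reads per library.

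The level of *Scn4a* per kb of exon was 2.04 ± 0.259 times that of *Clcn1* in WT and 2.15 ± 0.120 times in *mdx5cv* muscles (n = 4, SD, exact permutation p = 0.429). *Scn4a*, *Clcn1* and *Kcnj11* also varied together within a group, as the plot of deviations shows. WT replicate 2 was the lowest WT muscle and *mdx5cv* replicate 4 the lowest *mdx5cv* muscle for all 3 genes. The same held for *Myh4*, the myosin heavy chain of the fastest fibers, and, among genes chosen after their values were seen, for *Kcnc4* and *Kcnj12*. Of the other adult fast fiber markers, it held for *Acta1*, *Atp2a1*, *Tnnt3*, *Mylpf* and *Pvalb* but not for *Myh1*, *Ckm*, *Pygm* and *Tnni2*. WT replicate 2 was the highest WT muscle for *Ckm*, *Pygm* and *Tnni2*. The low place of *mdx5cv* replicate 4 was not particular to these genes, as it was the lowest *mdx5cv* muscle for *Kcnj2*, *Kcna5* and *Kcnc1* too. WT replicate 2 was instead the highest WT muscle for *Kcnj2* and *Kcnc1*. *Kcnn3* took the other side in *mdx5cv*, with its highest *mdx5cv* value in replicate 4.

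**Figure D2:**
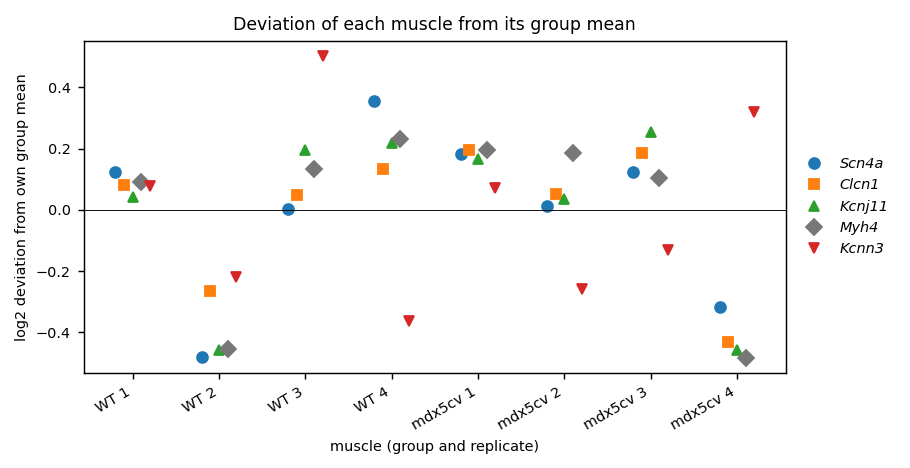
Log2 deviation of each muscle from the mean of its own group (y axis) for *Scn4a*, *Clcn1*, *Kcnj11*, *Myh4* and *Kcnn3*, with the 8 muscles on the x axis. WT replicate 2 lies between -0.48 and -0.26 and *mdx5cv* replicate 4 between -0.48 and -0.32 for the first 4 genes, and *Kcnn3* lies at 0.32 in *mdx5cv* replicate 4.

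Of 24 chloride channel genes listed, 17 were tested, of which 4 were higher, 4 were lower and 9 did not pass, *Clcn1* included. At equal totals 6 passed in limma and with centering on the fast fiber markers 5 did, all of them higher. The endosomal exchanger gene *Clcn5* rose from 56.6 ± 11.5 to 226 ± 108 normalized counts (SD, n = 4; log2 fold change 1.88, adjusted p = 0.000145). *Clic1* and *Clic4*, which encode intracellular proteins of the chloride channel family, rose by 1.56 and 1.03 on the log2 scale (adjusted p = 0.00012 and 4.95e-05), and the lysosomal exchanger gene *Clcn7* rose by 0.41 (adjusted p = 0.0145). The genes that fell were *Ano1*, a calcium-activated chloride channel gene, *Clic5*, the *Clcn7* partner *Ostm1* and the endosomal gene *Clcn3*, with log2 fold changes between -0.58 and -0.35. None of these 4 passed at equal totals, where *Clcn3* had a log2 fold change of 0.01. The macrophage markers moved with the genes that rose, since all 7 were higher in *mdx5cv* and their sum ranged from 551 to 835 normalized counts in WT and from 4131 to 9954 in *mdx5cv*. The part of macrophages in these levels was not tested.

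*Kcnj2* (ENSMUSG00000041695.2, chromosome 11, 111066164 to 111076821, plus strand) encodes the classical inward rectifier that sets the resting potential, and is mutated in a form of periodic paralysis with cardiac arrhythmia. Its normalized counts were 1269.8, 1435, 1202 and 1226 in WT and 979, 1035, 975 and 770.3 in *mdx5cv*. All 4 *mdx5cv* muscles were below all 4 WT muscles. The mean fell from 1283 ± 105 to 939.9 ± 116 (SD, n = 4), with a log2 fold change of -0.45 (SE 0.11, 95% confidence interval -0.70 to -0.21, adjusted p = 0.0060 in limma). This call depended on the scaling of the libraries, although it held in 17 of 20 alternatives. It was kept with TMM factors (log2 fold change -0.45, adjusted p = 0.0067 in limma), in edgeR (adjusted p = 0.0085) and in DESeq2 (adjusted p = 0.0013). At equal totals the log2 fold change was -0.10 (adjusted p = 0.465), at equal totals without the mitochondrial genes it was -0.24 (adjusted p = 0.0594), and with the libraries centered on the fast fiber markers it was -0.14 (adjusted p = 0.508). Under the scalings that lost the call, the median over all genes went from 0.0035 to 0.36, 0.21 and 0.32 on the log2 scale. A scaling shifts all genes nearly alike. The place of *Kcnj2* below the median gene could therefore not change, and it does not bear on the call.

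*Kcnj11* (ENSMUSG00000096146.2, chromosome 7, 46093953 to 46100764, minus strand) encodes the pore of the potassium channel that ATP closes, which links the energy state of the fiber to its excitability. Normalized counts were 1086, 769, 1209.6 and 1229.9 in WT and 1054, 963, 1119 and 684 in *mdx5cv*. The groups overlapped, and the lowest value of each group was again in WT replicate 2 and *mdx5cv* replicate 4. The means were 1074 ± 213 and 955 ± 192 (SD, n = 4), with a log2 fold change of -0.17 (SE 0.17, 95% confidence interval -0.54 to 0.20, adjusted p = 0.461) that turned to 0.19 at equal totals, 0.04 at equal totals without the mitochondrial genes and 0.15 with centering on the fast fiber markers. The partner subunit gene *Abcc9*, which encodes the sulfonylurea receptor of muscle and vessels, had 4719.7 ± 295 in WT and 3812 ± 426 in *mdx5cv* (log2 fold change -0.31, SE 0.11, adjusted p = 0.0367), with a log2 fold change of 0.05 at equal totals and 0.0052 with the fast fiber centering. The call of *Abcc9* was not firm, since it held in 9 of 20 alternatives and was not made by edgeR (adjusted p = 0.0522). Per kb of exon, *Kcnj11* had 0.517 ± 0.0931 times the level of *Abcc9* in WT and 0.566 ± 0.0598 times in *mdx5cv* (exact permutation p = 0.486).

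The inward rectifier list held 17 genes, of which 6 were tested, 4 were lower, 0 were higher and 2 did not pass in limma. The number of higher genes was also 0 at an unadjusted p under 0.05 and in edgeR and DESeq2. The number of lower genes was 3 in edgeR, without *Abcc9*, 4 in DESeq2 and 1, *Kcnj8*, at equal totals with or without the mitochondrial genes and with centering on the fast fiber markers. Besides *Kcnj2* and *Abcc9*, the genes that fell in limma were *Kcnj8*, the vascular partner of *Abcc9*, and *Kcnj12*, a close relative of *Kcnj2*. *Kcnj8* went from 237, 233, 217 and 192 normalized counts in WT to 106, 128, 118 and 90.3 in *mdx5cv* (log2 fold change -0.99, SE 0.14, adjusted p = 0.000115), and it passed under all alternatives, at equal totals with -0.63 (adjusted p = 0.0015). *Kcnj12* went from 605 ± 148 to 405 ± 51.9 (SD, n = 4; log2 fold change -0.56, adjusted p = 0.0129), with -0.20 (adjusted p = 0.376) at equal totals. *Abcc8*, the sulfonylurea receptor of the pancreas, had a log2 fold change of -0.27 (adjusted p = 0.452), which turned to 0.08 at equal totals and 0.05 with the fast fiber centering. *Kcnj2* made up 28.6% ± 5.15 of the summed level per kb of *Kcnj2*, *Kcnj8*, *Kcnj11* and *Kcnj12* in WT and 27.8% ± 1.73 in *mdx5cv* (exact permutation p = 0.886). Markers of vessel cells moved with *Kcnj8*, as 4 of 5 endothelial markers were lower in *mdx5cv*, with sums of 2717 to 3285 in WT and 1674 to 2164 in *mdx5cv*, and 2 were lower at equal totals. Of the 5 smooth muscle and pericyte markers tested, 3 were lower and 2 were higher, with sums of 5829 to 7193 and 4038 to 4691, and no endothelial, smooth muscle or pericyte marker was at 0 in all muscles. The part of vessel cells in the level of *Kcnj8* was not tested.

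*Kcnn3* (ENSMUSG00000000794.9, chromosome 3, 89520164 to 89675132, plus strand) encodes a small-conductance potassium channel opened by calcium, which is known in immature and denervated fibers and is scarce in innervated adult fibers. WT replicates 1 to 4 had 83.7, 68.0, 113 and 61.4 normalized counts, and *mdx5cv* replicates 1 to 4 had 368, 292, 319.7 and 438. No *mdx5cv* muscle overlapped the WT muscles, and *mdx5cv* replicate 4 was the highest. The mean rose from 81.5 ± 22.9 to 354 ± 63.8 (SD, n = 4), a 4.35-fold increase, and the log2 fold change was 2.13 (SE 0.19, 95% confidence interval 1.73 to 2.53, adjusted p = 4.39e-06 in limma). It passed under all 20 alternatives, with log2 fold changes between 2.01 and 2.49. The counts rested on 58 to 102 reads per WT library and 310 to 548 reads per *mdx5cv* library.

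The 4 small- and intermediate-conductance genes differed in direction. *Kcnn1* and *Kcnn2*, which are best known from neurons, fell from 202 ± 27.8 to 139 ± 26.4 and from 117 ± 12.2 to 62.7 ± 12.3 normalized counts (SD, n = 4; log2 fold changes -0.54 and -0.90, adjusted p = 0.0148 and 0.00091). At equal totals *Kcnn2* passed (-0.55, adjusted p = 0.0251) and *Kcnn1* did not (-0.19, adjusted p = 0.302). *Kcnn4*, the intermediate-conductance channel gene of immune and red blood cells, rose from 4.58, 4.39, 6.63 and 5.30 to 52.8, 33.0, 59.4 and 124 (log2 fold change 3.31, SE 0.35, adjusted p = 1.55e-05), and the 4 *mdx5cv* muscles were all above the WT muscles. Per kb of exon, *Kcnn3* went from 11.4% ± 2.92 of the summed level of the 4 genes in WT to 39.4% ± 4.09 in *mdx5cv*, and *Kcnn1* from 64.1% ± 3.43 to 35.9% ± 9.05. Each of the 4 shares differed with an exact permutation p of 0.0286, the smallest that 4 against 4 muscles can give, or 0.0457 after adjustment over the 8 shares and ratios tested. The 4 shares are parts of one sum in each muscle, so a share can fall because another rises. The 4 p-values are therefore not independent, although the adjustment counts them as separate tests. *Kcnn3* was the largest share in *mdx5cv* replicates 1 and 4 and *Kcnn1* in the other 6 muscles.

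**Figure D3:**
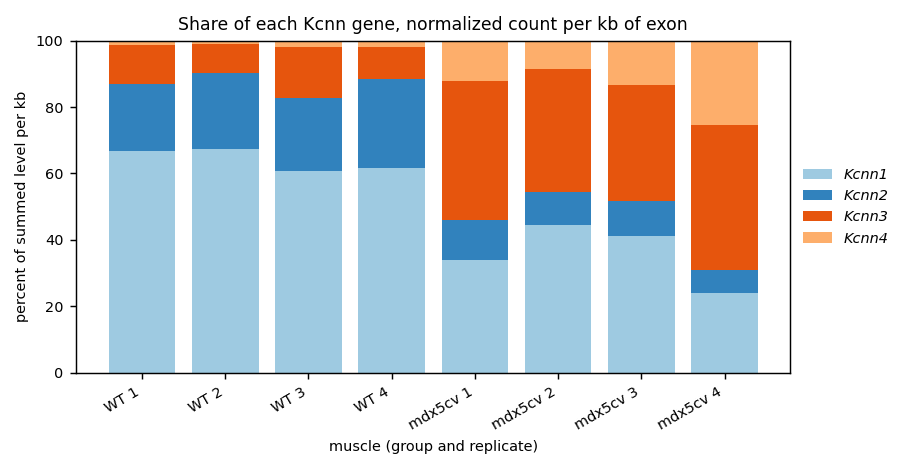
Percent of the summed normalized count per kb of exon (y axis) held by *Kcnn1*, *Kcnn2*, *Kcnn3* and *Kcnn4* in each of the 8 muscles (x axis). The share of *Kcnn3* lies between 8.56% and 15.3% in WT and between 35.0% and 43.8% in *mdx5cv*.

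*Kcnma1*, the gene for the large-conductance potassium channel opened by voltage and calcium, fell from 719, 729, 739 and 869 normalized counts in WT to 349, 281, 380 and 229 in *mdx5cv* (log2 fold change -1.32, SE 0.15, adjusted p = 2.15e-05), and passed under all alternatives. In total, 14 calcium-activated channel genes were listed and 6 were tested, of which 2 were higher, 3 were lower and *Kcnt2* did not pass (log2 fold change 0.05, adjusted p = 0.892). The regenerating fiber markers *Myh3*, *Myh8*, *Mymk*, *Mymx*, *Myog* and *Chrng* moved with *Kcnn3*. All 6 were higher in *mdx5cv*, their sum ranged from 118 to 143 normalized counts in WT and from 2175 to 8502 in *mdx5cv*, and *mdx5cv* replicate 4, which was highest for *Kcnn3*, was highest for this sum too. The lowest *Kcnn3* value in *mdx5cv* was in replicate 2, which also had the lowest sum of these markers. This order was not particular to them. The slow fiber, satellite cell and fibroblast sums were also lowest in replicate 2 and highest in replicate 4 of *mdx5cv*. The macrophage and denervation response sums were highest in replicate 4 but lowest in replicate 3. All 7 denervation response markers listed, which include *Chrna1*, *Ncam1* and *Runx1*, were higher in *mdx5cv* too, with sums of 320.3 to 400.2 normalized counts in WT and 1842 to 4493 in *mdx5cv*. The part of newly formed or denervated fibers in the level of *Kcnn3* was not tested.

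*Kcna5* (ENSMUSG00000045534.4, chromosome 6, 126532551 to 126535412, minus strand) encodes a delayed rectifier, a voltage-gated potassium channel best known from the atrium of the heart and from smooth muscle. It had 67.6, 97.6, 117 and 85.8 normalized counts in WT and 27.8, 62.3, 50.4 and 23.2 in *mdx5cv*. All *mdx5cv* muscles were below all WT muscles, and *mdx5cv* replicates 2 and 3 were closest to WT. The mean fell from 92.1 ± 20.8 to 40.9 ± 18.6 (SD, n = 4), with a log2 fold change of -1.23 (SE 0.29, 95% confidence interval -1.85 to -0.62, adjusted p = 0.0041 in limma). *Kcna5* passed under all 20 alternatives, with log2 fold changes between -1.47 and -0.88. It had 29 to 106 reads per library, so that counting error alone gives a coefficient of variation of 18.6% in the lowest library, against 45.4% between the 4 *mdx5cv* muscles. The smooth muscle, pericyte and endothelial marker sums given above were also lower in *mdx5cv*, and their part in the level of *Kcna5* was not tested.

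*Kcnc1* (ENSMUSG00000058975.7, chromosome 7, 46396497 to 46438704, plus strand) encodes a voltage-gated potassium channel with fast kinetics that is best known from fast-spiking neurons. Normalized counts were 1756, 1875, 1592 and 1845 in WT and 2269, 2272, 2067 and 2042 in *mdx5cv*. The *mdx5cv* muscles were all above the WT muscles, and this gene had the smallest relative spread of the 7, with a coefficient of variation of 7.19% in WT and 5.78% in *mdx5cv*. The mean rose from 1767 ± 127 to 2162 ± 125 (SD, n = 4), with a log2 fold change of 0.29 (SE 0.096, 95% confidence interval 0.085 to 0.50, adjusted p = 0.0269 in limma). The adjusted p was over 0.05 without WT replicate 1 (0.0621), WT replicate 3 (0.0970), *mdx5cv* replicate 1 (0.0798) or *mdx5cv* replicate 2 (0.0727), and also without the filter on low counts (0.0592) or the variance trend (0.0564). At equal totals the log2 fold change was 0.65 (adjusted p = 0.000321).

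Among 52 voltage-gated potassium channel genes listed, 51 were in the table and 18 were tested, of which 4 were higher, 8 were lower and 6 did not pass in limma. DESeq2 called 6 higher and 9 lower. With other scalings these numbers shifted, as 6 were higher and 4 lower at equal totals, 5 were higher and 7 lower at equal totals without the mitochondrial genes, and 5 were higher and 4 lower with centering on the fast fiber markers. *Kcng4*, a silent subunit that modifies other channels of the class, had the lowest log2 fold change of the channel genes tested. It fell from 735, 1006, 1030.5 and 966 normalized counts in WT to 247, 260.4, 235 and 96.7 in *mdx5cv* (log2 fold change -2.24, SE 0.26, adjusted p = 2.63e-05). The gene for the beta subunit *Kcnab1* also fell (-1.65, adjusted p = 0.000254), whereas that for the beta subunit *Kcnab2* rose from 8.78 ± 1.83 to 55.9 ± 23.1 (log2 fold change 2.47, adjusted p = 4.41e-05). *Kcna1* and *Kcna2*, which encode channels of myelinated axons, both had a log2 fold change of -1.23 (adjusted p = 0.0147 and 0.000741). The call of *Kcna1* was lost at equal totals (-0.91, adjusted p = 0.0614) and with centering on the fast fiber markers (-0.92, adjusted p = 0.0744), whereas *Kcna2* passed under both (-0.88 and -0.91, adjusted p = 0.00706 and 0.0157). Beside these, 4 of 6 Schwann cell markers were lower in *mdx5cv*, with sums of 467 to 859 in WT and 287 to 464 in *mdx5cv*, and 1 was lower at equal totals. The part of nerve tissue in these levels was not tested. *Kcnh2*, known for the repolarization of the heart, rose (1.33, adjusted p = 0.00214), as did *Kcnq5* (1.13, adjusted p = 9.87e-06), a channel of the slowly activating type, from 322 ± 41.8 to 703 ± 45.8 normalized counts.

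Over the 6 channel lists without the 7 genes, 54 genes were tested, of which 13 (24.1%) were higher and 18 (33.3%) were lower, with a median log2 fold change of -0.11. Of all genes tested, 20.9% were higher and 20.1% were lower. The direction in these lists depended on the scaling, since 19 were higher and 6 lower at equal totals and 17 were higher and 6 lower with centering on the fast fiber markers. The median log2 fold change over all genes also rose under these scalings, to 0.36 and 0.32, so the shift was not particular to channels. Of 14 genes listed with tandem pore domains, which encode background potassium channels, 4 were tested and 10 were not. Of these 4, *Kcnk13*, *Kcnk6* and *Kcnk5* were higher and *Kcnk2* did not pass. *Kcnk13*, a channel gene of microglia and macrophages, had 0 to 2 reads per WT library and 18.5, 7.55, 16.2 and 38.4 normalized counts in *mdx5cv*. It entered the test only through its *mdx5cv* values, so it could hardly have been tested as a lower gene. The plot of fold changes places the 7 genes among 58 of the 61 channel genes tested.

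**Figure D4:**
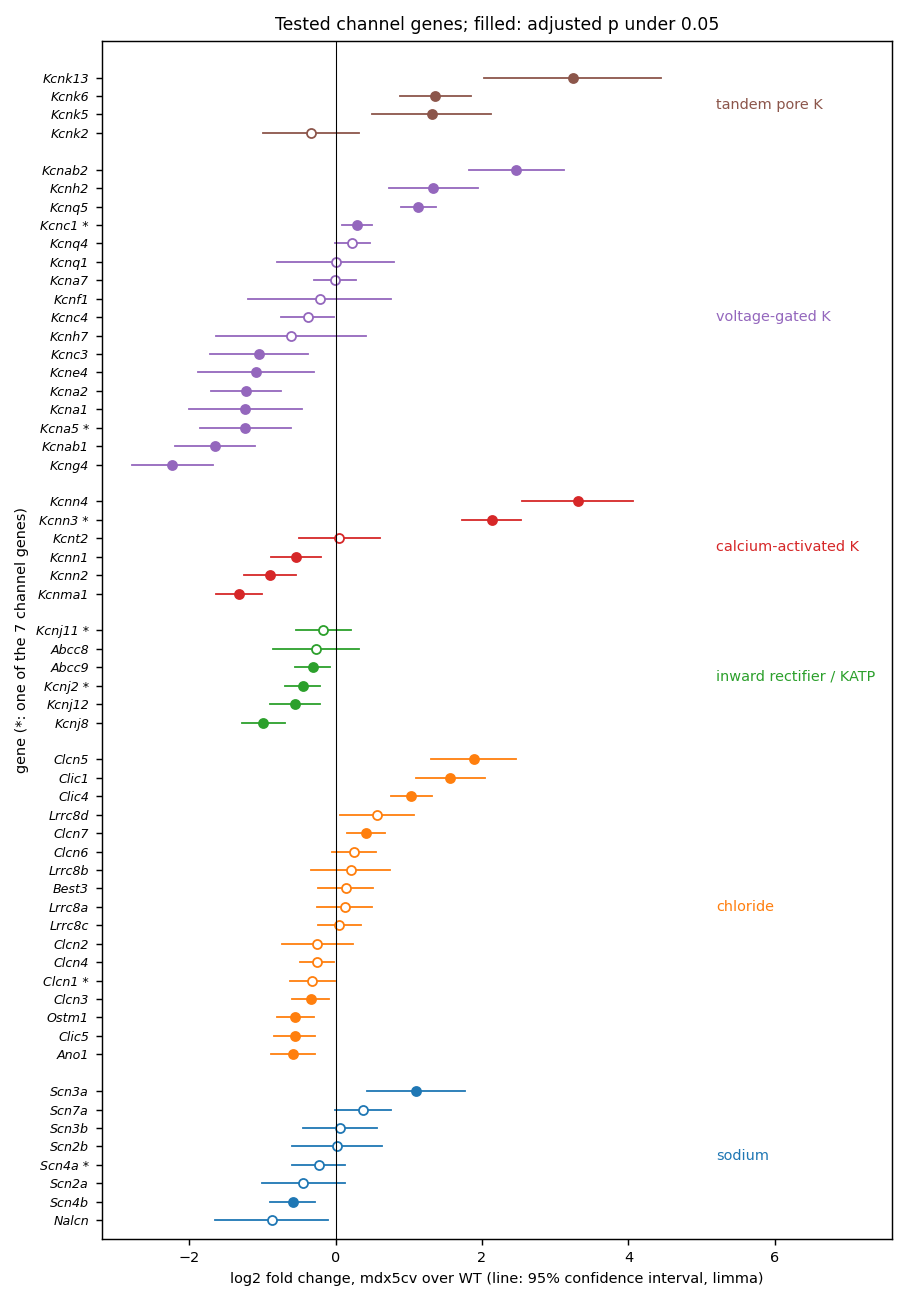
Log2 fold change of *mdx5cv* over WT (x axis) with its 95% confidence interval for 58 of the 61 channel genes tested, by family (colors), with the 7 channel genes marked by an asterisk and filled circles for an adjusted p under 0.05 in limma. *Kcnn3* at 2.13 lies above most genes, *Kcna5* at -1.23 lies among the lower voltage-gated genes, and the other 5 genes lie between -0.45 and 0.29.

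When levels were compared per kb of exon, *Scn4a* ranked 3 of the 61 channel genes tested in WT with 948 ± 218 normalized counts per kb (SD, n = 4). It was followed among the 7 genes by *Clcn1* with 461 ± 54.2, *Kcnj11* with 292 ± 57.9, *Kcnj2* with 236 ± 19.3 and *Kcnc1* with 187 ± 13.4. *Kcna5* had 32.2 ± 7.27 and *Kcnn3* had 7.80 ± 2.19 normalized counts per kb. The ranges of *Kcnj11* and *Kcnj2* overlapped between WT muscles, and the other neighbors in this order did not. In *mdx5cv* the order was *Scn4a* (797 ± 116), *Clcn1* (373 ± 69.6), *Kcnj11* (259.8 ± 52.2), *Kcnc1* (229 ± 13.2), *Kcnj2* (173 ± 21.4), *Kcnn3* (33.9 ± 6.10) and *Kcna5* (14.3 ± 6.48). The ranges of *Clcn1* and *Kcnj11* and those of *Kcnj11* and *Kcnc1* overlapped between *mdx5cv* muscles. *Kcnn3* and *Kcna5* exchanged places, from ranks 35 and 26 of 61 in WT to ranks 24 and 33 in *mdx5cv*.

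The sodium-potassium pump restores the gradients that these channels use. Of 15 genes for its subunits and their regulators, 10 were tested, of which 5 were higher, 0 were lower and 5 did not pass in limma. The number of lower genes was 0 in edgeR and 2 in DESeq2, and 2 at an unadjusted p under 0.05 in limma. *Fxyd5* and *Fxyd6*, small regulators of the pump, rose by 1.68 and 1.001 on the log2 scale (adjusted p = 4.25e-05 and 0.000102). The beta subunit genes *Atp1b2* and *Atp1b3* rose by 0.79 and 0.51 (adjusted p = 0.0156 and 0.00343). Of 17 genes that anchor or regulate channels, 14 were tested, 5 (35.7%) were higher, 4 (28.6%) were lower and 5 did not pass. At equal totals 9 passed in limma and with centering on the fast fiber markers 5 did, all of them higher. *Sntb1* and *Sntb2*, which encode the beta syntrophins, rose by 1.08 and 0.38 (adjusted p = 0.00762 and 0.0267). *Fgf11* was also higher in limma, edgeR and DESeq2, and it kept direction and call in all 20 alternatives. *Mbnl1* and *Mbnl2*, which encode splicing factors that act on the *Clcn1* transcript, fell by 0.40 and 0.43 (adjusted p = 0.0194 and 0.00198), and *Sgk1*, a kinase gene of channel trafficking, fell by 0.62 (adjusted p = 0.00298). *Mbnl1*, *Mbnl2* and *Sgk1* did not pass at equal totals (adjusted p between 0.101 and 0.745).

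For each of the 7 genes, the genes with the most similar profile were found among the 7641 genes that averaged 100 or more normalized counts, as the root mean square difference of log2 deviations from the WT mean over the 8 muscles. The profile of *Kcnc1* was closest to *Dgkz* (0.0430) and *Zbtb1* (0.0627), and that of *Kcnj2* to *Mmaa* (0.0469) and *Mia2* (0.0479). *Clcn1* was closest to *Zcrb1* (0.0650) and *Mybpc2* (0.0693), *Scn4a* to *Ube2d1* (0.0883) and *Zcrb1* (0.0938), and *Kcnj11* to *Dpf3* (0.0891) and *Ky* (0.0938). *Kcna5* and *Kcnn3* had no such close match. *Kcna5* was closest to *Rcan2* (0.207) and *Smtnl1* (0.243), and *Kcnn3* to *Sytl2* (0.223) and *Ckap4* (0.240). These 2 genes had the fewest reads of the 7. Counting error alone gives a coefficient of variation in WT of 10.9% for *Kcna5* and 11.6% for *Kcnn3*, against 1.28% to 3.20% for the others. The part of counting error in these distances was not tested. *Sytl2* had a log2 fold change of 2.03 and *Ckap4* of 2.22, against 2.13 for *Kcnn3*. The difference between the groups is part of the distance, so similar fold changes follow from the choice of these genes. Both averaged 100 or more only through *mdx5cv*, with means of 43.0 and 41.3 in WT and 176 and 202 in *mdx5cv*.

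The scaling of the libraries moved all 7 estimates upward, as the plot of alternatives shows. The size factors were lower in WT (0.873 to 0.944) than in *mdx5cv* (1.06 to 1.25), and the mitochondrial genes held 30.03% to 38.7% of reads in WT and 25.3% to 32.1% in *mdx5cv*. *Kcnn3* and *Kcna5* kept direction and call under each scaling, and the signs of *Scn4a*, *Clcn1* and *Kcnj11* did not hold under all of them.

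**Figure D5:**
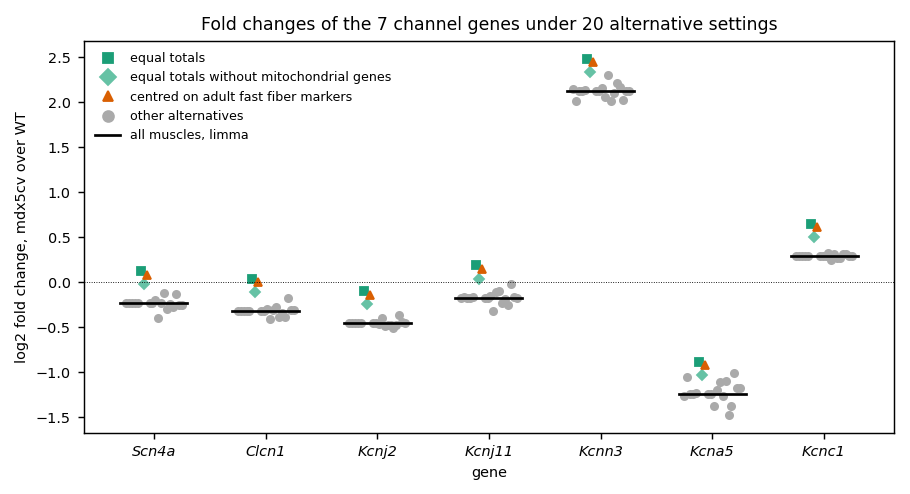
Log2 fold change of *mdx5cv* over WT (y axis) of each channel gene (x axis) in the fit over all 8 muscles (black line) and under 20 alternatives (symbols). The 3 alternative scalings in color lie above the black line for each gene, and *Kcnn3* stays between 2.01 and 2.49 and *Kcna5* between -1.47 and -0.88.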

How the data were processed

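TA muscles of 4 *mdx5cv* and 4 WT mice were grouped by the genotype in their labels. The submitters' processing notes name FastQC, Trim Galore 0.6.4, STAR 2.6.0c, SAMtools 1.9, featureCounts, MultiQC 1.6, DESeq2 1.26.0, R 3.6.2 and the mm10 genome, and the counting strand is not given in the sources used here. The values deposited are a signal, in which the reads on each gene were divided by the size factor of the library, and 0 further columns of values were present. Whole reads were recovered from 100% of values (tolerance 0.001), between 13175524 and 14921057 per library, which limits the precision of low genes. Intervals cover the spread between muscles. Between replicates of a group, chi-square per degree of freedom was 8.59 to 38.4, so no library was a copy of another.

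The test was limma 3.58.1 in R 4.3.3 (lmFit, eBayes with a variance trend, two-sided, Benjamini-Hochberg adjustment over all genes tested) on log2(normalized count + 1) over the 13677 genes that averaged at least 10 normalized counts. Fold changes on this scale understate the change of low genes. Genes that averaged under 10 in WT, such as *Kcnk13*, *Kcnn4* and *Kcnab2*, entered the test only through their *mdx5cv* values. Shares and ratios were compared with exact permutation tests over the 8 muscles. Alternatives were pseudocounts of 0.1 and 10, other filters, TMM factors, equal totals with and without mitochondrial genes, centering on 10 adult fast fiber markers, no variance trend, a replicate block, omission of each replicate in turn, and edgeR 4.0.16 and DESeq2 1.42.0 on the recovered reads. Python 3.11.15 was used for other steps, and the fits were tested on simulated data. Coordinates and exon lengths are from GENCODE M21 on GRCm38, matched without ID versions for 55141 of 55401 genes, and promoters are from RefSeq.

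The 7 genes, the channel lists and the marker lists were chosen with earlier results of these data known. The text names the 7 genes, *Dmd*, up to 5 genes with the largest absolute log2 fold change among those that passed in each list, every tested sodium, inward rectifier and calcium-activated channel gene, and the 2 genes closest in profile to each of the 7. Other genes named (*Fam131b*, *Kcnc4*, *Kcnk2*, and members of the lists beyond the first 5) were chosen after their values were seen. *Kcne5* of the voltage-gated list had no matching row. Some genes of the lists are counted but not reported here by name.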

Additional observations from a re-analysis of the deposited data

Results flagged for a closer look

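In 88 sets of 4 muscles (44 genes given by the naming rule, in each group), 5 muscles stood apart from the other 3 of their group by Dixon's test, where chance gives about 1 in 20 sets, or 4.4. None of the 7 channel genes was among them. WT replicate 2 was highest for *Scn7a*, at 8.04 on the log2 scale against 7.28 to 7.38 in the other WT muscles. WT replicate 4 was highest for *Kcnma1*, at 9.76 against 9.49 to 9.53. *mdx5cv* replicate 4 gave the other 3, being lowest for *Clic5* (10.48 against 10.97 to 11.01) and for *Kcng4* (6.61 against 7.88 to 8.03) and highest for *Fxyd5* (7.71 against 6.82 to 6.94).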

How the results depend on the processing

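Past both thresholds, 1861 genes were called, 1595 to 1991 with a replicate left out, 2844 without the filter on low values, where more genes were tested, and 1004 with at least 10 normalized counts in every sample, where fewer were tested. The share called higher was 76.0%, against 91.5% at equal totals, 87.2% at equal totals without mitochondrial genes and 90.6% with centering on fast fiber markers. The number of the 7 channel genes that passed was 4, 3 to 6 with a replicate left out, and 3 or 4 under the other alternatives. For the channel lists it was 31, 27 to 32 with a replicate left out and 22 to 37 otherwise. The replicate numbers did not pair the muscles, since the correlations of same-numbered deviations were 0.050, 0.031, 0.072 and 0.15 and only the muscles numbered 3 and 4 correlated best with their own number. With the replicate block 1882 genes, 4 of the 7 channel genes and 32 listed genes passed.

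Signs turned in 17 of the comparisons of 44 named genes with 20 alternatives, 814 kept direction and call, 36 lost the call and 7 gained it, and the cause was not tested. At equal totals the log2 fold change was 0.13 for *Scn4a*, 0.039 for *Clcn1*, 0.19 for *Kcnj11*, 0.045 for *Abcc9* and 0.075 for *Abcc8*. Without mitochondrial genes it was 0.043 for *Kcnj11*, and with fast fiber centering 0.085 for *Scn4a*, 0.15 for *Kcnj11*, 0.0052 for *Abcc9* and 0.047 for *Abcc8*. With a replicate left out, values near 0 crossed it for *Scn2b* (-0.14 to 0.15), *Scn3b* (-0.084 to 0.19) and *Kcnt2* (-0.098 to 0.24).

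Low depth limits genes such as *Kcna5* and *Kcnn4*, which had 29 and 4 reads in their lowest libraries.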
